A study of Homo sapiens with 4 samples.

Results

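The genes examined encode the proteasome: the subunits of its core and of its regulatory particle, its activators and its assembly chaperones. They were taken by symbol from the platform annotation, as PSMA, PSMB, PSMC and PSMD followed by a number and the PSME and PSMG genes, by a rule that uses no measured value. The family and its role classes were, however, picked with earlier results of these data known. Below, a proteasome gene is one taken by this rule. The annotation listed 43 such genes among 17687, each with 1 probe set. Another 4 genes of these families, the ATPase gene PSMC5, the lid genes PSMD7 and PSMD13 and the activator gene PSME2, were not listed and are not analysed here. The samples were cultures of DU145, a prostate cancer cell line of human origin whose growth does not need androgen, kept for 48 h with No.10-3 at 5 µM, C-30 at 0.5 µM, C-30 at 2 µM or vehicle. Both compounds are described by the labels as inhibitors of PSF, the RNA-binding protein encoded by SFPQ. There was 1 array for each of the 4 conditions, so errors and p-values cannot be given, and every statement describes these 4 arrays only.

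The proteasome degrades proteins that carry ubiquitin chains. Its core is a barrel of stacked rings: alpha rings outside, which form the gate, and beta rings inside, in which PSMB5, PSMB6 and PSMB7 carry the proteolytic sites. The regulatory particle caps the barrel, where a ring of ATPases (PSMC genes) unfolds substrates and opens the gate, and a lid (several PSMD genes) removes ubiquitin. Each mature particle holds its subunits in fixed proportion, and the transcription factor NFE2L1 is known to raise the subunit genes together when proteasome activity is lost.

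Signals are values made by RMA and are read as log2, a base inferred from their range. A difference is the treated value minus the vehicle value. A log2 difference of 1, which is 2-fold on this scale, was used for counts in either direction. A gene entered a comparison when the higher of its 2 values was at or above 5.56, the median over probe sets that have a gene name. As a measure of background, the 95th percentile over negative controls was taken, which was between 7.06 and 7.32 on the 4 arrays, and genes whose values both lie under it are described as within background. By this measure 34 proteasome genes were above background on all 4 arrays and 6 were within background on each of them. The lowest, median and highest proteasome signals were 3.72, 10.18 and 14.13 with No.10-3, 3.29, 10.45 and 14.53 at 0.5 µM C-30, 3.71, 10.35 and 14.61 at 2 µM C-30, and 3.00, 10.02 and 14.66 with vehicle. Signal is relative to the other genes on an array, and fewer cells of a type and less RNA per cell cannot be told apart in it. The epithelial keratin genes KRT8 and KRT18 lay between 10.17 and 13.61 and EPCAM between 7.33 and 8.02, whereas the epithelial cadherin gene CDH1, the prostate genes KLK3, KLK2 and TMPRSS2 and the endothelial and fibroblast markers PECAM1, CDH5, VWF, COL1A1, DCN and PDGFRB lay within background on each array, apart from COL1A2, which stood at 7.13 at 0.5 µM C-30. Of the leukocyte markers, CD68 alone was above background, between 8.55 and 9.50 on the treated arrays and at 8.43 with vehicle, and its part in the results was not tested. The 63 ERCC spike probe sets had a robust SD of the difference against vehicle of 0.126 for No.10-3, 0.166 for the lower and 0.271 for the higher dose of C-30. Over all genes that entered each comparison the robust SD was larger, at 0.471, 0.513 and 0.601, and this includes any response to the compounds. Of the positive control probe sets, 6.55%, 8.06% and 11.3% passed 2-fold.

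The promoters of 5 genes are shown because the results turn on these genes: PSMC6, PSMA4 and PSMD14 passed 2-fold with C-30, and PSMD3 and PSMB2 were among the lowest with No.10-3. Each window runs 5′ to 3′ on the gene's strand from 250 bases before to 30 after the start site in the RefSeq table of GRCh38.p14, which for these 5 genes is also the start of the gene. PSMD14 is at chr2:161308175-161308454 (plus strand), PSMC6 at chr14:52706950-52707229 (plus), PSMA4 at chr15:78540155-78540434 (plus), PSMD3 at chr17:39980557-39980836 (plus) and PSMB2 at chr1:35641497-35641776 (minus). Capitals mark matches, on either strand, to TGACNNNGC (core of the element read by NFE2L1 and NFE2L2 with small MAF proteins), CCAAT (read by NF-Y) or CCGGAAG (read by ETS factors), and the only matches that overlapped in these windows were both CCAAT matches of PSMD14.
PSMD14: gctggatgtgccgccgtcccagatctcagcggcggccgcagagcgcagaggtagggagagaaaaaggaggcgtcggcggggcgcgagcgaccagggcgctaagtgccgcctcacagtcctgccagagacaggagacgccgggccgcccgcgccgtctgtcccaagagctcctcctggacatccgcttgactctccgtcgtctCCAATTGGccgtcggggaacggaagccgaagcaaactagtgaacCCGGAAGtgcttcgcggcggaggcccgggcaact
PSMC6: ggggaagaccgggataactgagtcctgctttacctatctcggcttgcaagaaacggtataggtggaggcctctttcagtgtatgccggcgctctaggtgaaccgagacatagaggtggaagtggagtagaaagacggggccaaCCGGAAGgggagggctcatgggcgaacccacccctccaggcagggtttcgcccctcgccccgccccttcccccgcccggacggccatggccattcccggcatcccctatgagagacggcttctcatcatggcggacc
PSMA4: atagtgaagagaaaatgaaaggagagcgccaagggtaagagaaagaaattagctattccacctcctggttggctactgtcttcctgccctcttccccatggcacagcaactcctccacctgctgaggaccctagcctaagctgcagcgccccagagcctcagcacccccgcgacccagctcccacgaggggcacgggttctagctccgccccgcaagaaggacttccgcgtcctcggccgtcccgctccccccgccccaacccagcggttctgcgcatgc
PSMD3: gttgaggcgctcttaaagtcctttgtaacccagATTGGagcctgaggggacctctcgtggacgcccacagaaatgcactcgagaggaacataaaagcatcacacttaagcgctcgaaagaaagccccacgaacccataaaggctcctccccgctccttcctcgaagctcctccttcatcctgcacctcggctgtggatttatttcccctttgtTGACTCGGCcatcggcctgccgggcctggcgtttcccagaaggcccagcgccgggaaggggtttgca
PSMB2: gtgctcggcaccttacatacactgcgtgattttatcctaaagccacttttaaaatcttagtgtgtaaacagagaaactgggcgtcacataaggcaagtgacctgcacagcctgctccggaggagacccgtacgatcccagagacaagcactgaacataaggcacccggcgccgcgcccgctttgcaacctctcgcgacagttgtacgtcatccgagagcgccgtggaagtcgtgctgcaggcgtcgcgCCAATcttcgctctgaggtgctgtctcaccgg

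In the PSMD14 window CCAAT began at position -48 and, on the opposite strand, at -45, and CCGGAAG at -4, where position 1 is the start site and there is no position 0. PSMC6 held CCGGAAG at -107, PSMD3 held TGACNNNGC at -37 and CCAAT at -217 on the opposite strand, PSMB2 held CCAAT at -2, and the PSMA4 window held none of the 3 motifs. Windows were found for 37 of the 43 genes, and in 6 of these (PSMA1, PSMA6, PSMC2, PSMD6, PSMG1 and PSMG4) the start site in the table is not the outermost start of the gene. TGACNNNGC was in 10 of these 37 (27.0%), against 12.5% of all 27305 promoters. CCGGAAG was in 11 (29.7%, against 10.3%) and CCAAT in 17 (45.9%, against 34.7%). The median GC content was 61.8% in the 37 windows and 58.2% in all, and its part in these shares was not tested. A match is a string of letters and no evidence of binding.

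Over all role classes, proteasome genes past the floor were counted beside all genes past it, whose shares are in brackets. With No.10-3, 19 of 39 proteasome genes were higher than vehicle (54%) and 20 lower (45.9%), none was 2-fold higher (4.36%) and 1 was 2-fold lower (1.32%). At 0.5 µM C-30, 23 of 39 were higher (46.9%) and 16 lower (53.1%), 4 passed 2-fold on the higher side (3.4%) and none on the lower (2.77%). At 2 µM C-30, 25 of 38 were higher (46.4%) and 13 lower (53.6%), 6 passed 2-fold on the higher side (4.67%) and none on the lower (6.15%). The median differences in the same order were -0.00, 0.30 and 0.20, against 0.05, -0.04 and -0.06 over all genes. At 1.5-fold, 6 were higher and 3 lower with No.10-3 (14.8% and 8.34%), 13 and 2 at 0.5 µM C-30 (12.2% and 13.4%), and 11 and none at 2 µM C-30 (15.1% and 18.5%). The 3 differences share the vehicle array. When the arrays were centred on genes past the floor, the No.10-3 median over all genes shifted by -0.10. This put 16 of 39 proteasome genes above vehicle and turned PSMB1, PSMB7 and PSME3 to the lower side. The share of higher genes among all genes past 2-fold was then 59.9% in place of 76.7%, and at 2 µM C-30 54.8% in place of 43.2%.

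The genes of the alpha ring and of the beta ring differed in RNA signal with C-30, and their medians also differed with No.10-3. Subunit protein and the make-up of the particle were not measured. All 7 alpha-ring genes past the floor were higher than vehicle at both doses, with median differences of 0.80 at 0.5 µM and 0.85 at 2 µM. Of the 7 beta-ring genes, 2 were higher and 5 lower at each dose, with medians of -0.15 and -0.17, and 3 were higher under each other scaling, where PSMB4 crossed 0. Over all genes past the floor the medians were -0.04 and -0.06, and 46.9% and 46.4% were higher. The rings' ranges overlapped, from 0.43 to 1.23 for alpha and -0.76 to 0.57 for beta at 0.5 µM, and from 0.13 to 1.06 and -0.46 to 0.40 at 2 µM. With No.10-3 the medians were 0.13 for the alpha ring (4 of 7 higher) and -0.42 for the beta ring (2 of 7 higher, or 0 of 7 when arrays were centred), against 0.05 for all genes (54% higher).

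**Figure D1:**
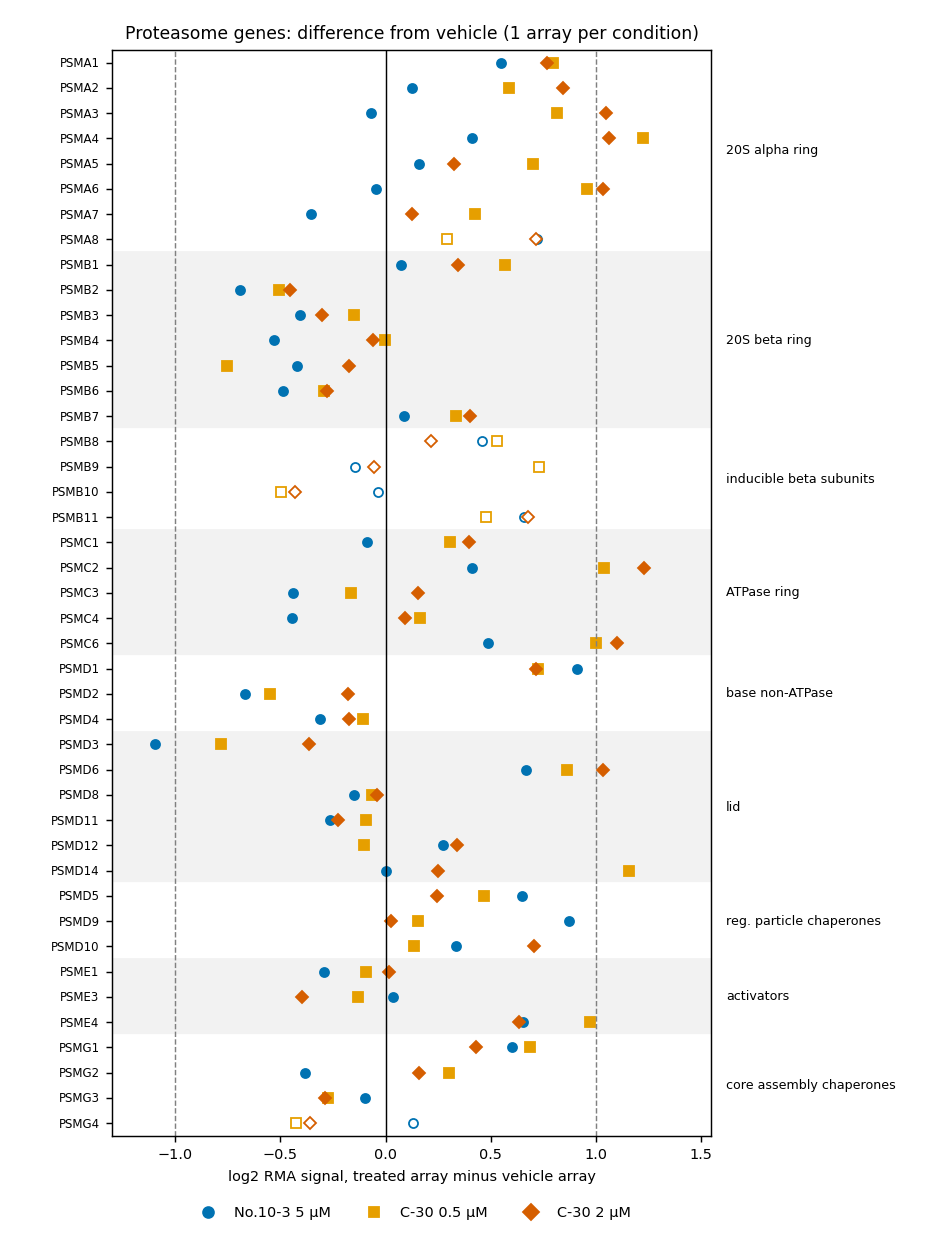
Log2 difference from vehicle (x axis) of the 43 proteasome genes (y axis, grouped by role) for No.10-3 at 5 µM (circles), C-30 at 0.5 µM (squares) and C-30 at 2 µM (diamonds). Each symbol is 1 array minus the vehicle array, dashed lines mark 2-fold, and open symbols are genes within background on all 4 arrays; the 7 alpha-ring genes with filled symbols lie right of 0 with C-30, and PSMD3 is the only gene past 2-fold to the left.

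Within the alpha ring, PSMA3, PSMA4 and PSMA6 passed 2-fold at 2 µM C-30. PSMA4 (chromosome 15, 78540405 to 78552417), an outer-ring subunit, had signals of 8.92 with No.10-3, 9.74 at 0.5 µM C-30, 9.58 at 2 µM C-30 and 8.51 with vehicle. Both C-30 arrays were above the other arrays, and the differences from vehicle were 0.41, 1.23 and 1.06. PSMA6 (chromosome 14, 35278558 to 35317493), whose product is also part of the gate-forming ring, had 13.53 with No.10-3, 14.53 and 14.61 at 0.5 and 2 µM C-30, and 13.57 with vehicle. Its No.10-3 value lay next to vehicle, at a difference of -0.04, and its C-30 differences were 0.96 and 1.03. PSMA3 (chromosome 14, 58244843 to 58272004) showed the same order, with 9.11 for No.10-3, 10.00 and 10.23 for the C-30 doses and 9.18 for vehicle, so that it differed by -0.07, 0.81 and 1.05. The antisense gene PSMA3-AS1, which overlaps it and has a probe set of its own, differed by 0.02 with No.10-3 and by -0.50 and -0.59 with the C-30 doses. RefSeq names 4 pseudogenes of PSMA6 and 1 of PSMA3, and a read-through gene with PRORP overlaps PSMA6. It also names pseudogenes of PSMA1, PSMA2, PSMA5 and PSMA7, but in the beta ring only of PSMB3 and PSMB7. Whether probes read any of these was not tested, so this uncertainty falls unevenly on the 2 rings.

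The other alpha-ring genes stayed under 2-fold. PSMA1 differed by 0.55 with No.10-3 and by 0.80 and 0.77 at 0.5 and 2 µM C-30, and PSMA2 by 0.13, 0.59 and 0.85. PSMA5 (0.16, 0.70 and 0.32) and PSMA7 (-0.36, 0.43 and 0.13) were nearer to vehicle at the higher dose of C-30 than at the lower. PSMA8, which encodes an alpha subunit found in the testis, lay within background, between 3.29 and 3.72 on the treated arrays and at 3.00 with vehicle.

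In the beta ring, PSMB2, a structural subunit, was lower than vehicle on each treated array. Its signals were 12.48 with No.10-3, 12.67 at 0.5 µM C-30, 12.72 at 2 µM C-30 and 13.17 with vehicle, and its differences -0.69, -0.51 and -0.46. PSMB4, another subunit without a proteolytic site, had 13.20, 13.73 and 13.67 on the treated arrays in the same order and 13.73 with vehicle. Only its No.10-3 value stood apart from vehicle, at -0.53. PSMB3 had 11.15, 11.41 and 11.26 on those arrays and 11.56 with vehicle, or -0.41, -0.15 and -0.30. PSMB1 went the other way, with differences of 0.07, 0.57 and 0.34, the first turning lower when arrays were centred.

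The catalytic subunits did not move as a group. PSMB5 (chromosome 14, 23025851 to 23035220), which holds the chymotrypsin-like site that bortezomib binds, had 8.78 with No.10-3, 8.44 at 0.5 µM C-30, 9.03 at 2 µM C-30 and 9.20 with vehicle. It was lowest at the lower dose of C-30, at a difference of -0.76, against -0.42 with No.10-3 and -0.17 at the higher dose. PSMB6, the caspase-like subunit, had 11.55 with No.10-3, 11.75 and 11.76 with the C-30 doses and 12.04 with vehicle, and so differed by -0.49, -0.29 and -0.28. PSMB7, the trypsin-like subunit, had 13.17, 13.42 and 13.48 on the treated arrays and 13.08 with vehicle, and was higher by 0.09, 0.34 and 0.40, the first of which turned lower when arrays were centred.

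The inducible subunits that replace these 3 in the immunoproteasome lay within background. PSMB8, the counterpart of PSMB5, had 5.67 with No.10-3, 5.74 and 5.42 with the C-30 doses and 5.21 with vehicle. PSMB9, the counterpart of PSMB6, had 3.999, 4.87 and 4.09 on the treated arrays and 4.14 with vehicle, and PSMB10, that of PSMB7, had 4.50, 4.03 and 4.10 against 4.53. The thymus subunit gene PSMB11 lay between 3.84 and 4.04 on the treated arrays and at 3.37 with vehicle. Since none of their values was above it, the differences of these 4 genes are not interpreted. Of the 13 measured genes of a list of interferon response and antigen presentation, 4 were above background on all arrays. Of the 8 past the floor, none passed 2-fold in any comparison, beside 1.32% to 6.15% of all genes in either direction. B2M, the light chain of class I molecules, was higher by 0.42 with No.10-3 and by 1.00 (rounded, and under the threshold) and 0.99 at 0.5 and 2 µM C-30. TAP2, a subunit of the peptide transporter, differed by -0.02, -0.93 and -0.90, and UBE2L6 by -0.65, -0.19 and -0.19, though UBE2L6 lay within background. From 0.5 to 2 µM C-30 the largest differences among those past the floor were IRF9 at 0.57 and HLA-C at 0.28, both within background.

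**Figure D2:**
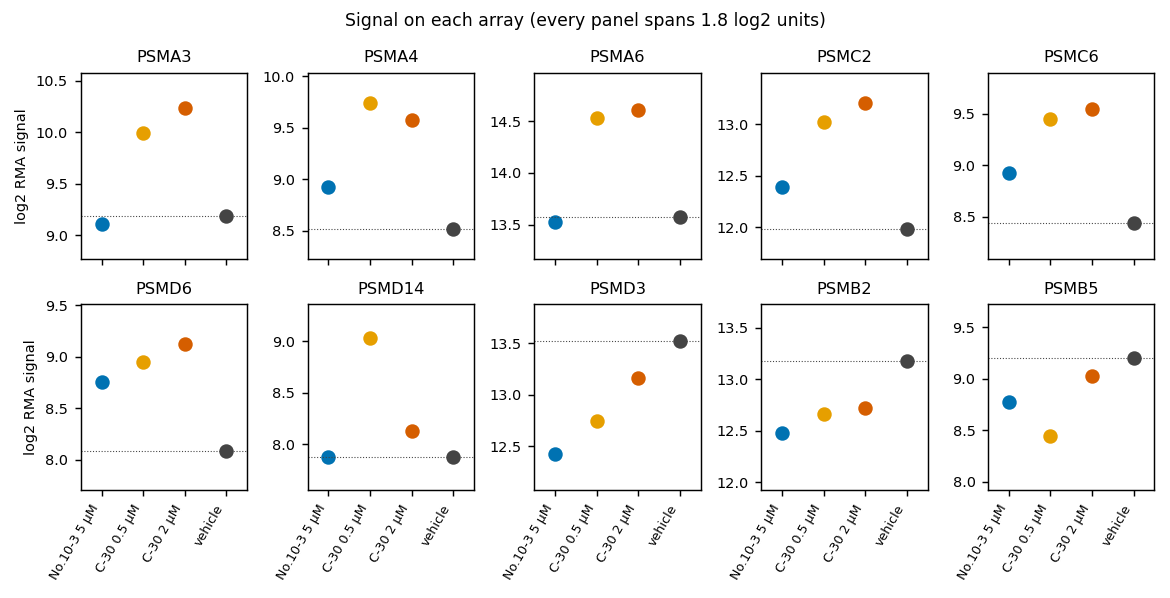
Log2 RMA signal (y axis) on each of the 4 arrays (x axis) of the 8 genes past 2-fold in any comparison with vehicle and of PSMB2 and PSMB5. Each dot is 1 array and the dotted line is the vehicle value; PSMA3, PSMA4, PSMA6, PSMC2 and PSMC6 stand highest on the C-30 arrays, PSMD14 on that of C-30 at 0.5 µM alone, and PSMD3 and PSMB2 lowest with No.10-3.

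Among the 5 measured ATPase genes, PSMC2 and PSMC6 passed 2-fold with both doses of C-30. PSMC2 (chromosome 7, 103347524 to 103369395) had 12.39 with No.10-3, 13.02 at 0.5 µM C-30, 13.21 at 2 µM C-30 and 11.98 with vehicle. It was the proteasome gene farthest above vehicle at 2 µM, by 1.23 (2.34-fold), the 97.95th percentile of all genes past the floor, and its differences with No.10-3 and the lower dose were 0.41 and 1.04. PSMC6 (chromosome 14, 52707200 to 52728590) had 8.93, 9.44 and 9.54 on the treated arrays and 8.44 with vehicle, or differences of 0.49, 1.00 and 1.10, the second of them just past the threshold. The rest of the ring lay closer to vehicle: PSMC1 differed by -0.09, 0.31 and 0.39, PSMC3 by -0.44, -0.16 and 0.16, and PSMC4 by -0.44, 0.16 and 0.09. The medians of the 5 genes were -0.09 with No.10-3 and 0.31 and 0.39 at 0.5 and 2 µM C-30. All 5 were higher at 2 µM (46.4% of all genes), though PSMC3 and PSMC4 only by 0.16 and 0.09. RefSeq names 2 pseudogenes of PSMC2, 3 of PSMC6 and 13 of PSMC1, PSMC2 is overlapped by PMPCB and SLC26A5, and whether probes read them was not tested, so their values are uncertain to that extent.

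The base subunits that scaffold the ATPase ring differed among themselves. PSMD1, the larger scaffold, had 11.46 with No.10-3, 11.27 and 11.26 with the C-30 doses and 10.55 with vehicle. It was the proteasome gene farthest above vehicle with No.10-3, at 0.91, and stood at 0.73 and 0.72 with C-30. PSMD2, its partner scaffold and a docking site for ubiquitin-like domains, had 13.99 with No.10-3, 14.12 and 14.48 with the C-30 doses and 14.66 with vehicle, so that it was lower by -0.67, -0.55 and -0.18. After quantile normalization over named genes its difference at 2 µM C-30 turned to 0.13. The ubiquitin receptor gene PSMD4 differed by -0.31, -0.11 and -0.18.

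The lid held the lowest proteasome gene with No.10-3 and at 0.5 µM C-30, though not at 2 µM C-30, and some of the highest. PSMD3 (chromosome 17, 39980807 to 39997959), a structural lid subunit, had 12.43 with No.10-3, 12.74 at 0.5 µM C-30, 13.16 at 2 µM C-30 and 13.52 with vehicle. With No.10-3 it was the only proteasome gene past 2-fold, at 0.468 times the vehicle value, the 0.824th percentile of all genes past the floor; on the log2 scale this was -1.10. With the C-30 doses it stood at -0.78 and -0.36. PSMD6 (chromosome 3, 64010551 to 64024007), another structural subunit, was higher on each treated array, with 8.76, 8.95 and 9.13 on these and 8.09 with vehicle, or 0.67, 0.86 and 1.04. PSMD14 (chromosome 2, 161308425 to 161411717), the deubiquitinase that cuts chains off substrates, had 7.88 with No.10-3, 9.03 at 0.5 µM C-30, 8.13 at 2 µM C-30 and 7.88 with vehicle. It stood apart on a single array, at 1.16 with the lower dose of C-30, against 0.25 at the higher dose and -0.00 with No.10-3. RefSeq places antisense genes over PSMD6 and names 1 pseudogene of PSMD14, which leaves both values uncertain. The structural lid genes PSMD8, PSMD11 and PSMD12 differed from vehicle by between -0.27 and 0.34.

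The 3 chaperones of the regulatory particle taken by the rule, which hold ATPase pairs apart until assembly, were higher than vehicle on each treated array. Of all genes, 54% were higher with No.10-3, 46.9% at 0.5 µM C-30 and 46.4% at 2 µM C-30. PAAF1, another chaperone of this particle that the rule does not take, was lower on each, by -0.49, -0.16 and -0.38. Its values with No.10-3 and at 2 µM C-30 were under background. PSMD9 had 7.70 with No.10-3, 6.97 and 6.85 with the C-30 doses and 6.82 with vehicle. Its difference of 0.87 with No.10-3 set a value above background beside one within it, and its C-30 differences of 0.15 and 0.03 were within background. PSMD5 had 11.75, 11.57 and 11.35 on the treated arrays and 11.10 with vehicle, or 0.65, 0.47 and 0.25. PSMD10, the oncoprotein gankyrin, had 7.15, 6.96 and 7.53 on the treated arrays and 6.82 with vehicle, or 0.33, 0.14 and 0.71. Its values with vehicle and at 0.5 µM C-30 were under background, so the second difference was within background and the others set a value above it beside one under it.

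Of the activators, which open the barrel without ATP, PSME4 was higher on each treated array. It had 8.99 with No.10-3, 9.31 at 0.5 µM C-30, 8.97 at 2 µM C-30 and 8.34 with vehicle, and differences of 0.65, 0.97 and 0.63. PSME3, which encodes the nuclear activator, had 13.18, 13.01 and 12.74 on those arrays and 13.14 with vehicle, or 0.04, -0.13 and -0.40. PSME1, the interferon-inducible activator subunit, stood close to background, at differences of -0.29, -0.10 and 0.02. The 4 core assembly chaperones taken by the rule went both ways. PSMG1 differed by 0.60, 0.69 and 0.43, its dimer partner PSMG2 by -0.38, 0.30 and 0.16, and PSMG3 by -0.10, -0.28 and -0.29. POMP, a core assembly chaperone that the rule does not take, was higher by 0.43, 0.56 and 0.91. PSMG4 lay within background, with 5.84, 5.28 and 5.35 on the treated arrays and 5.71 with vehicle.

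**Figure D3:**
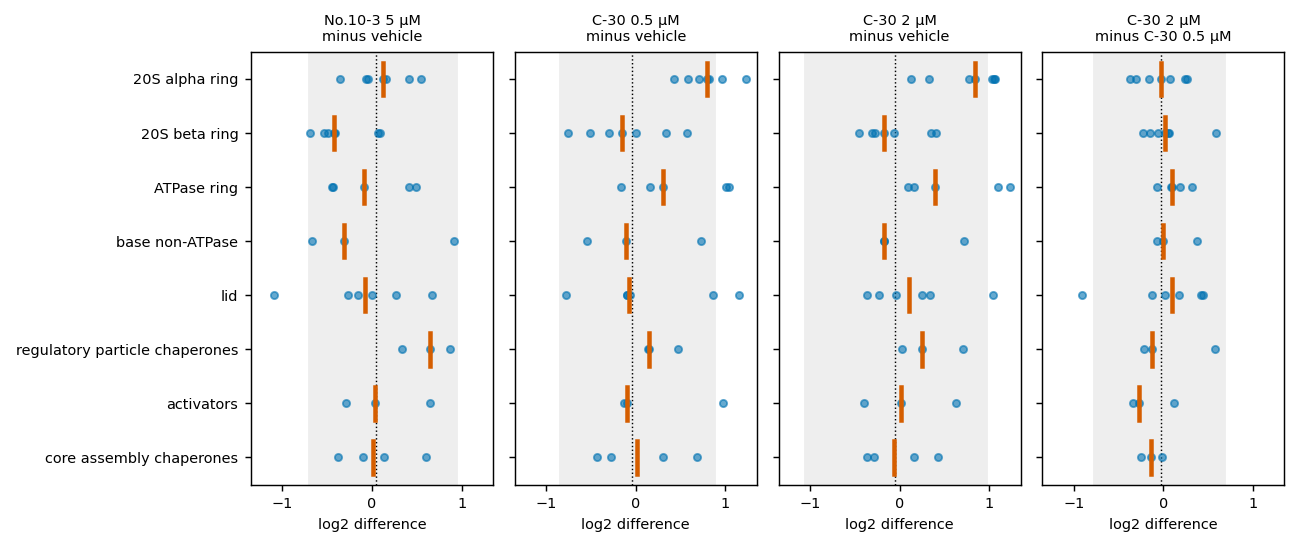
Log2 difference (x axis) of the genes past the floor in each role class (y axis), for each treated array minus vehicle and for C-30 at 2 µM minus 0.5 µM. Dots are genes, orange bars the class medians, the dotted line the median of all genes and the grey band their 5th to 95th percentile; the alpha-ring medians lie at 0.80 and 0.85 with C-30 and those of the beta ring at -0.15 and -0.17.

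Between the doses of C-30, none of 38 proteasome genes passed 2-fold in either direction (1.39% of all genes on the higher and 2.18% on the lower side), and 1 was 1.5-fold lower (9.92% of all genes) and none 1.5-fold higher (7.89%). The 1.5-fold lower gene was PSMD14, with a difference of -0.91 (2 µM minus 0.5 µM). The next largest differences were those of PSMB5 at 0.58 and PSMD10 at 0.57, where PSMD10 had a value under background at 0.5 µM. Over the 38 genes the median was -0.01, with 18 higher and 20 lower (46.6% and 53.4% of all genes), beside -0.03 for all genes. The robust SD of the ERCC spikes between these arrays was 0.152, and that of all genes past the floor was 0.410.

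Level and gene length went along, to a varying degree, with the differences from vehicle. Across the proteasome genes past the floor, the difference and the mean signal had a Spearman rho of -0.52 with No.10-3 (39 genes), -0.25 at 0.5 µM C-30 (39) and -0.29 at 2 µM C-30 (38), where all genes gave 0.01, -0.08 and -0.10. The genomic span of the gene gave rho of 0.38, 0.43 and 0.36, where all genes gave 0.18, 0.10 and 0.07. These points share their arrays, and the difference contains the vehicle value. Between the doses of C-30 (38 genes) rho had the other sign, at 0.12 for signal and -0.13 for span. All genes gave -0.05 and -0.02 there. Median spans were 27284.5 bp for the alpha ring, with 1 gene under background among its 8, and 11485 bp for the beta ring. The median vehicle signals of these groups were 9.03 and 12.04. The part of level and span in the ring difference was not tested. A correction of the difference for signal, fitted over all genes and not for span, cannot remove a trend held by the proteasome genes alone. It gave alpha-ring medians of 0.83 and 0.94 and beta-ring medians of -0.05 and -0.09 at 0.5 and 2 µM C-30. At 0.5 µM, 8 of 20 proteasome genes with a mean signal at or above their median, 10.68, were higher than vehicle (median difference -0.08). Below that signal 15 of 19 were higher (0.59). At 2 µM C-30 these counts were 10 of 20 (0.03) and 15 of 18 (0.39). Whether this split accounts for the ring difference was not tested.

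**Figure D4:**
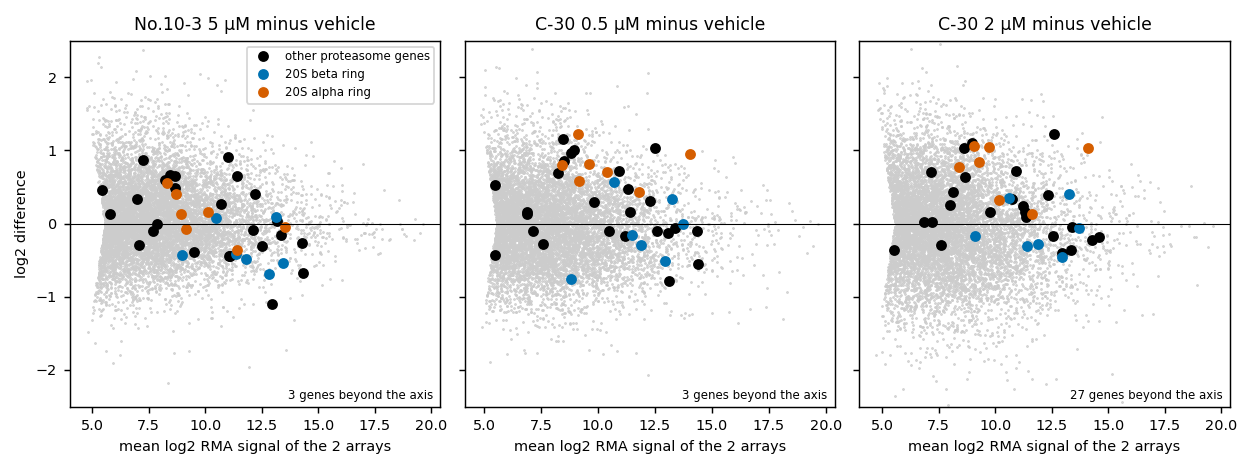
Log2 difference from vehicle (y axis) against the mean log2 signal of both arrays (x axis) for all genes past the floor (grey), alpha-ring genes (orange), beta-ring genes (blue) and other proteasome genes (black), 1 panel per treated array. With C-30 the alpha-ring genes lie above 0 and 5 of the 7 beta-ring genes below it. Of these 5, PSMB4 lies next to 0, at -0.0026 and -0.0592 for 0.5 and 2 µM.

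Other genes that serve the proteasome, not taken by the rule, were examined as lists. The accessory factors include ADRM1 and SEM1, which encode subunits of the particle under other names. Of 17 accessory factors past the floor, 8 were higher with No.10-3 (54% of all genes), 8 at 0.5 µM C-30 (46.9%) and 10 at 2 µM C-30 (46.4%). Their medians were -0.13, -0.00 and 0.15, against 0.05, -0.04 and -0.06 over all genes. ZFAND5, which stimulates the particle, had 10.42 with No.10-3, 10.76 at 0.5 µM C-30, 11.67 at 2 µM C-30 and 10.20 with vehicle. At 2 µM it passed 2-fold, at 1.47, as did the arsenite-inducible gene ZFAND2A, with 6.78, 7.76 and 8.30 on the treated arrays and 6.98 with vehicle, at 1.31. ZFAND2A was under background with vehicle, so its fold is inexact. UCHL5, a deubiquitinase of the particle, passed 2-fold at 0.5 µM C-30 alone, at 1.25, with 0.71 at 2 µM and 0.56 with No.10-3. Its receptor ADRM1 was lower by -0.72 with No.10-3, -0.50 at 0.5 µM C-30 and -0.85 at 2 µM C-30. At 2 µM C-30 this lay below the lowest gene taken by the rule, PSMB2 at -0.46. UBQLN1, a shuttle for ubiquitinated proteins, stood at 0.33, 0.30 and 0.93, and the segregase cofactor UFD1 at -0.57, -0.32 and 0.15.

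NFE2L1 itself had 12.68 with No.10-3, 12.56 at 0.5 µM C-30, 12.89 at 2 µM C-30 and 13.04 with vehicle. All treated arrays were thus below vehicle, by -0.36, -0.48 and -0.15. Of its pathway list, 2 of 5 genes past the floor were higher with No.10-3 (54% of all genes), 2 of 4 at 0.5 µM C-30 (46.9%) and 3 of 5 at 2 µM C-30 (46.4%). SYVN1, a ligase of endoplasmic reticulum degradation, differed by -0.84, -0.50 and -0.52, and the small MAF gene MAFF by -0.03, 0.40 and 0.65. Only at 2 µM C-30 was the MAFF value above background. NGLY1, which removes sugars from NFE2L1, was at 1.01 at 2 µM C-30, but lay within background. Of the 7 genes past 2-fold above vehicle with either dose of C-30, all had a promoter window. None of these windows held TGACNNNGC (12.5% of all promoters, 27.0% of the 37 proteasome windows). CCAAT was in 4 (34.7% and 45.9%) and CCGGAAG in 4 (10.3% and 29.7%). With 7 windows, picked by their signals, these counts are too few to set apart from the shares. For PSMA6, PSMC2 and PSMD6 the start site is not the outermost start of the gene. The counts say only whether the letters are there. Of 6 stress genes known to respond to blocked proteasomes, 2 were higher with No.10-3 (54% of all genes), 1 at 0.5 µM C-30 (46.9%) and 3 at 2 µM C-30 (46.4%). Their medians were -0.30, -0.40 and -0.05, against 0.05, -0.04 and -0.06 over all genes. DNAJB1, an HSP40 chaperone gene, had 11.15, 11.40 and 11.82 on the treated arrays and 12.24 with vehicle, and was past 2-fold lower with No.10-3 (-1.09). HSPH1 (0.80, 0.43 and 0.23), HMOX1 (-0.44, -0.64 and -0.82) and HSPA1A (-0.31, -0.51 and 0.31) stayed under 2-fold. Of the 3 measured genes of ubiquitin supply, 3 were higher with No.10-3 (54% of all genes), 2 at 0.5 µM C-30 (46.9%) and 1 at 2 µM C-30 (46.4%). UBA1, the main ubiquitin-activating enzyme, differed by 0.31, -0.45 and -0.94, UBB by 0.11, 0.04 and -0.36, and UBA6, within background, by 0.96, 0.17 and 0.30.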

How the data were processed

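Total RNA of the 4 cultures was labelled by a whole-transcript kit and measured on Affymetrix arrays, per the labels' protocols. The deposited values were taken as log2 signals. The submitters' processing notes name RMA and the program Affymetrix Expression Console, version 1.3.0, as what the authors used. In its usual form RMA includes a background correction and a quantile normalization across arrays, which remove any change common to all genes. The log base was inferred from the range. The highest named value, 19.66, exceeds what a scanner gives on a log2 scale, so 2-fold holds only on the scale of these values. The sources used here do not name the genome build or annotation behind that step. The platform annotation paired 17709 of the 24351 probe sets with a single gene symbol and none with several; the rest are unnamed here. Symbols were updated by Entrez identifier through RefSeq (17709 matched), and the mean was taken over the probe sets of a gene, giving 17687 genes. Coordinates, spans and promoters come from RefSeq tables of GRCh38.p14.

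Differences were computed over all genes. Comparisons were each treated array with vehicle, and C-30 at 2 µM with C-30 at 0.5 µM. With 1 array per condition no test was possible, and precision is limited by that number. Values on all arrays are given for genes past 2-fold, for the 5 highest and 5 lowest of each comparison with vehicle, and for the inducible subunits with PSMB5, PSMB6 and PSMB7. Other pathway genes are named when past 2-fold or among the 2 largest differences of a list. PAAF1, POMP and SEM1 are named besides for their roles. The rule for the genes uses symbols alone, but this gene family, its role classes and the lists were picked with earlier results of these data known. Alternatives were a 1.5-fold threshold, other floors, other normalizations, the brightest probe set and the per-array tables. The procedure was tested on simulated data. Software was Python 3.11.15 and its packages pandas 2.3.3, numpy 2.4.6, statsmodels 0.14.6, matplotlib 3.10.9 and scipy 1.17.1.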

Additional observations from a re-analysis of the deposited data

How the results depend on the processing

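No paired analysis was possible because each condition has 1 array, and for the same reason no array could be left out of a comparison. The 51 counts and medians gave 410 values under the alternatives. Of these, 390 moved by less than the ERCC spread, or for counts by no more than 1.5 times, 17 moved further, and 3 were medians of at least 0.1 in size that changed sign. Smaller medians that crossed 0 are among the 390. The cause was not tested unless named. At 1.5-fold in place of 2-fold 6 genes were higher and 3 lower for No.10-3, 13 and 2 for C-30 at 0.5 µM, 11 were higher for C-30 at 2 µM, and 1 was lower between the doses. Without a floor, which adds genes within background, the inducible subunits had medians of 0.21 with No.10-3 and -0.13 between the doses. With a floor at the 75th percentile (7.90) fewer genes entered. The activators then had medians of 0.34 (No.10-3) and 0.42 (C-30, 0.5 µM), the regulatory particle chaperones 0.47 at 0.5 µM C-30, and the core assembly chaperones 0.49 at 0.5 µM C-30 and 0.29 at 2 µM. A floor at the 95th percentile of the negative controls gave the same 0.34, 0.42 and 0.47, put the core assembly chaperones at 0.30 at 0.5 µM C-30, and turned the regulatory particle chaperones between the doses to 0.18, in place of -0.13. The base non-ATPase median turned to 0.13 at 2 µM C-30 after quantile normalization and to 0.00471 at 0.5 µM C-30 after a correction for signal. Of 11 named values past 2-fold, none was lost under quantile normalization, the correction for signal or centring, and 1, 2 and 0 were gained.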
